A study of Mus musculus with 36 samples.

Results

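The comparison described here set the livers of 3 female mice without ascorbate for the last 4 weeks (FGL00) against those of 3 female mice kept on a low ascorbate supply since weaning (FGL01). Both groups were Gulo-/-. Gulo encodes gulonolactone oxidase, which forms ascorbate from gulonolactone, so these mice depend on the ascorbate in their drinking water. FGL00 mice received 0.4% ascorbate (weight per volume) until the age of 3 months, when it was removed for 4 weeks, and FGL01 mice received 0.01% throughout. All were on standard chow, were fasted overnight and were killed at 4 months of age, with the liver collected after exsanguination. The 2 groups differ in the last dose (none against 0.01%) and in the earlier dose (0.4% against 0.01%), and the parts of these differences cannot be told apart. The 6 mice are part of a series of 36, 3 in each of 12 groups of the same age, from which the females given 0.4% (FGL40), 0.05% (FGL05) or 0.4% again after a period without it (FGLR40), the wild type females without supplement (FWT00) and the matching males (MGL00 and MGL01) are used below, FGL05 only in the fit. Whole-liver RNA was measured as TPM (transcripts per 1000000), a share of a fixed sum, in which a rise of some genes lowers the values of the others. Of the 36066 genes in the table, 18828 had TPM above 0 in at least 4 of the 6 mice and form the set compared.

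Ascorbate keeps the iron of several oxygenases in its reduced state, among them the enzymes that hydroxylate collagen and the hypoxia-inducible factor, and it promotes the uptake of iron from food. The liver adjusts the iron supply of the body through hepcidin, a secreted peptide that degrades ferroportin, the iron exporter of gut cells and macrophages. Hepcidin transcription is raised by bone morphogenetic proteins (BMP) made by sinusoidal endothelial cells, through SMAD proteins, and by interleukin 6, through STAT3, and it is lowered when red cell formation takes up iron. Interleukin 6 also drives the acute phase response, in which hepatocytes secrete serum amyloid A, orosomucoid and other plasma proteins.

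Per mouse values are given in the order FGL00-2788, FGL00-2790 and FGL00-2791, and FGL01-2722, FGL01-2723 and FGL01-2724. Gulo itself, whose transcript was still measured in the Gulo-/- livers, had 47.3, 35.3 and 52.2 TPM in FGL00, against 16.4, 30.2 and 32.8 TPM in FGL01 (adjusted p = 0.0509), and 242 ± 23.3 TPM in FWT00 (SD, n = 3). Adjusted p values are Benjamini-Hochberg values from limma, fitted to log2(TPM + 1) in all 18 females and adjusted over the 18828 genes, and fold changes are on that scale, which shrinks those of genes with low TPM. The hepatocyte markers, albumin and others, summed to 108897 to 122227 TPM in FGL00 and 99462 to 103662 TPM in FGL01. The depth of the libraries is not part of these values. Across genes, FGL01-2722 correlated no better with the other FGL01 mice (Pearson's r of log2 values 0.983 and 0.987) than with the FGL00 mice (0.986 to 0.988), and results that rest on it are given without it below.

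In all, 204 genes were called, with mean TPM that differed more than 2-fold and an adjusted p under 0.05. Of these, 75 were higher in FGL00 (0.398% of the genes tested) and 129 were lower (0.685%). By the adjusted p alone, which is used for the counts of gene lists, 132 genes were higher (0.701%) and 640 were lower (3.4%). The 3 FGL00 mice lay above all 3 FGL01 mice for 571 genes (3.03%) and below them for 3602 genes (19.1%). The lower side was tied to the scale. The median log2 fold change of all genes was -0.11, and median-ratio scaling moved it by 0.10 to -0.01. After that scaling 81 genes were called higher and 30 lower, of which 69 and 30 were among those called before, and by the adjusted p alone 184 were higher (0.977%) and 64 lower (0.34%). Leaving out 1 mouse gave between 78 called genes (without FGL01-2723) and 530 (without FGL01-2722), with 82 without FGL00-2788 and 103 without FGL01-2724. With only the 6 mice in the fit, 2 genes were called, Slc13a3 higher and Hamp lower.

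**Figure D1:**
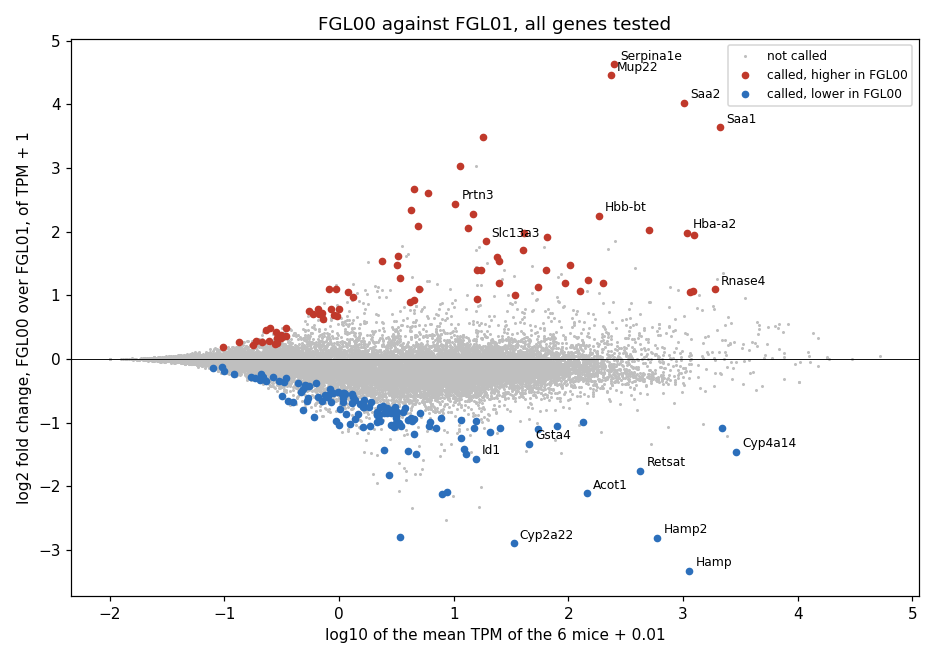
Log2 fold change of TPM + 1 (FGL00 over FGL01) of each of the 18828 genes against the log10 of its mean TPM over the 6 mice plus 0.01. Red points are the 75 genes called higher in FGL00, blue points the 129 called lower and grey points the others. Hamp lies lowest, at -3.32, and Serpina1e highest, at 4.63.

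Both hepcidin genes were lower in FGL00. Hamp, which encodes the active hormone, had 135, 272 and 232 TPM in FGL00, against 2296, 2059 and 1818 TPM in FGL01 (log2 fold change -3.32 with SE 0.27, adjusted p = 2.94e-05). The highest FGL00 mouse lay far below the lowest FGL01 mouse, and without any 1 of the 6 mice the adjusted p was at most 2.99e-04. FGL40 livers had 4303 ± 645 TPM, FGLR40 livers 6248 ± 941 TPM and FWT00 livers 5888 ± 1109 TPM (SD, n = 3 each), so FGL00 had the lowest mean of the female groups named here. Hamp2, a mouse paralog whose peptide is not known to act on iron, had 117, 112 and 187 TPM in FGL00, against 512, 1608 and 1044 TPM in FGL01 (log2 fold change -2.81 with SE 0.43, adjusted p = 0.00427, at most 0.0242 without any 1 mouse). Its groups did not overlap either, with FGL01-2722 the lowest of its group. Reads of these near-identical genes may be shared between them, and their sum was 252, 384 and 419 TPM in FGL00, against 2809, 3667 and 2861 TPM in FGL01.

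The promoters of both genes are shown because the known BMP and STAT elements of the hepcidin promoter lie side by side in them. The sequences are the 150 bases before the start of transcription, from RefSeq (GRCm38.p6), at chr7:30944030-30944179 (minus strand) for Hamp and chr7:30924182-30924331 (minus strand) for Hamp2. Capitals mark the BMP-responsive element (GGCGCC, read the same on both strands) or the bases at its place, and the STAT element (TTCNNNGAA, which matches on both strands).
Hamp: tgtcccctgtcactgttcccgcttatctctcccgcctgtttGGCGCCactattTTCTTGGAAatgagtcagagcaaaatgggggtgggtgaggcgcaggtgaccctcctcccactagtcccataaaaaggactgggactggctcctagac
Hamp2: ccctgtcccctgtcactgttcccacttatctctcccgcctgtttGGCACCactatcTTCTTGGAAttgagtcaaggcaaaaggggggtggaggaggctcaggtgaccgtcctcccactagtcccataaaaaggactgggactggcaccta
In Hamp the BMP element starts at -109 and ends 6 bases before the STAT element, which starts at -97. Hamp2 holds the same STAT element at -94, and GGCACC in place of the BMP element, at -106 (G4A relative to Hamp, counted from 1 at the first base of the element). Over the 250 bases before the start, 227 of 253 aligned columns (89.7%) were identical. In windows of that length, 9.59% of the 32851 promoters in the RefSeq table held GGCGCC and 7.02% held TTCNNNGAA. These matches describe the sequence only.

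Id1 and Atoh8, targets of the BMP pathway, were lower as well, and other genes of the pathway gave calls that depended on single mice or did not pass. Id1, a direct SMAD target that encodes an inhibitor of DNA binding, had 6.15, 7.26 and 8.43 TPM in FGL00, against 18.3, 24.9 and 27.7 TPM in FGL01 (log2 fold change -1.56 with SE 0.26, adjusted p = 0.00658). Atoh8, a BMP target that raises hepcidin transcription, had 9.86, 9.12 and 11.7 TPM in FGL00, against 20.4, 19.8 and 22.9 TPM in FGL01 (log2 fold change -0.98 with SE 0.12, adjusted p = 9.42e-04). For both genes all 3 FGL00 mice lay below all 3 FGL01 mice and the adjusted p stayed at or under 0.0364 without any 1 mouse. Bmp6, the ligand through which liver iron raises hepcidin, had 0.908, 2.32 and 2.15 TPM in FGL00, against 4.27, 4.21 and 4.88 TPM in FGL01 (log2 fold change -1.005 with SE 0.20, adjusted p = 0.0166), but its adjusted p was 0.0564 without FGL00-2788, 0.0521 without FGL01-2723 and 0.0558 without FGL01-2724. Smad9, an inducible SMAD that dampens the pathway, had 0.522, 0.524 and 0.807 TPM in FGL00, against 2.20, 1.47 and 2.71 TPM in FGL01 (log2 fold change -0.94 with SE 0.23, adjusted p = 0.0381), and its adjusted p was 0.123 without FGL00-2788, 0.0850 without FGL00-2790, 0.0635 without FGL00-2791, 0.0614 without FGL01-2723 and 0.125 without FGL01-2724. Id3 and Id2, of the same family as Id1, had adjusted p values of 0.0279 and 0.0353 with log2 fold changes of -1.11 and -1.06. The adjusted p of Id3 was 0.115 without FGL00-2788, 0.0659 without FGL00-2790, 0.0814 without FGL01-2723 and 0.0752 without FGL01-2724, and that of Id2 was 0.129 without FGL00-2788, 0.0881 without FGL00-2790, 0.131 without FGL01-2723 and 0.122 without FGL01-2724. The inhibitors Smad7 and Smad6 and the endothelial ligand Bmp2 did not pass, with log2 fold changes of -0.88, -0.37 and -0.76 and adjusted p values of 0.0531, 0.0937 and 0.0864. All 3 lay lower in every FGL00 mouse than in any FGL01 mouse, as did 19.1% of all genes tested. Smad7 passed without FGL01-2722 (adjusted p = 0.00729). After median-ratio scaling Id1, Atoh8 and Bmp6 passed (adjusted p = 0.00887, 0.00167 and 0.0387), while Smad9, Id3 and Id2 did not (adjusted p = 0.0899, 0.0909 and 0.0947).

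**Figure D2:**
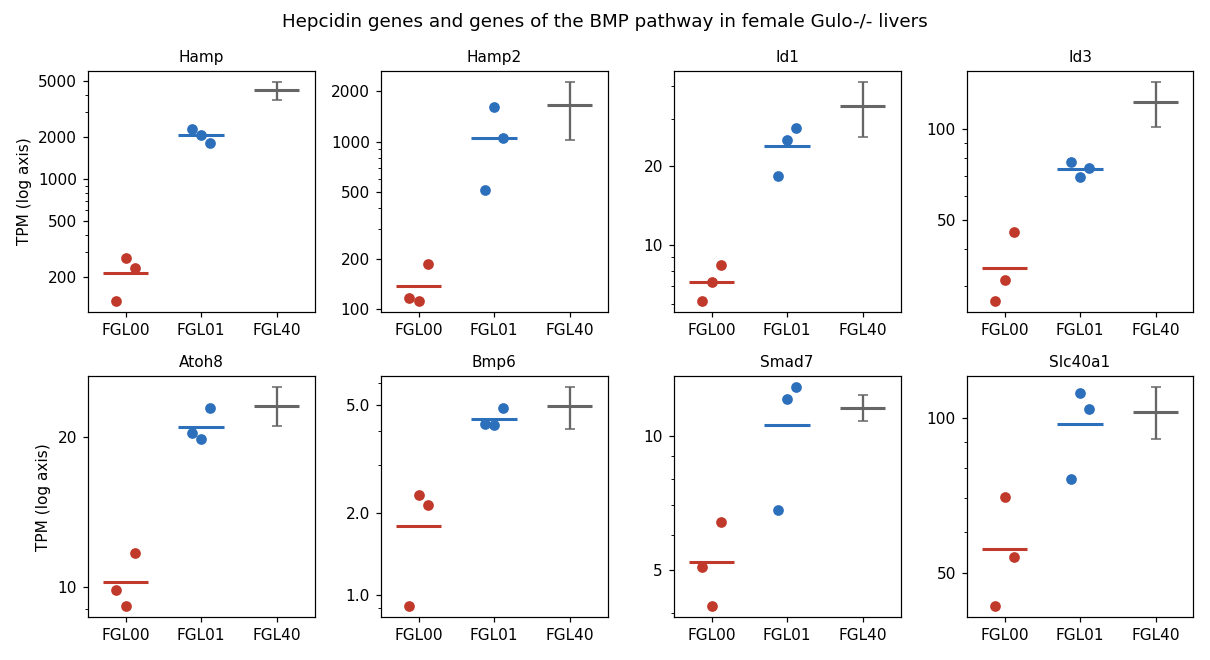
TPM (log axes) of Hamp, Hamp2 and 6 genes of the BMP pathway and of iron export in single livers of FGL00 (red) and FGL01 (blue), with the group mean as a line, and the mean with its SD in FGL40 (grey, n = 3). In each of the 8 panels the 3 FGL00 points lie below the 3 FGL01 points, as they did for 19.1% of all genes tested. The mean of Hamp was 213 TPM in FGL00 and 2058 TPM in FGL01.

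Sinusoidal endothelial cells are the main source of Bmp2 and Bmp6 in the liver. Their 14 markers summed to 149.7, 286 and 339.6 TPM in FGL00, against 353, 403 and 430.4 TPM in FGL01, with no overlap between the groups. FGL00-2788 was the lowest of the 6, and it was also the lowest for Bmp6, Bmp2 and Hamp, though not for Hamp2 or Atoh8. This was not particular to endothelial markers. The same mouse had the lowest sums of Kupffer cell and macrophage (564 TPM), stellate cell (351 TPM) and B and plasma cell markers (286 TPM). Its T and NK cell (13.4 TPM) and muscle and mesothelium sums (13.1 TPM) were the lowest too, and its hepatocyte sum (122227 TPM) was the highest. It was not the lowest for neutrophil, cholangiocyte, adipocyte, exocrine pancreas or erythroid markers. Nor was it the lowest for B and plasma cell markers without the immunoglobulin genes (237 TPM, against 229 TPM in FGL01-2722). Of the 14 endothelial markers, 2 were lower by the test, Ehd3 (log2 fold change -1.14, adjusted p = 0.0238) and Oit3 (-0.91, 0.0328). However, the adjusted p of Ehd3 was 0.0864 without FGL01-2723 and 0.0813 without FGL01-2724, and that of Oit3 0.0953 without FGL01-2723 and 0.0721 without FGL01-2724. The count ranged from 0 to 10 without 1 mouse, and it was 0 after scaling. With an unadjusted p under 0.05 by limma, 13 of the 14 were lower and none higher, against 3691 lower of all 18828 genes. In 7 of the 14 every FGL00 mouse lay below every FGL01 mouse, as in 19.1% of all genes tested. The median log2 fold change of the 14 was -0.74, and -0.57 after scaling. Stab2, a scavenger receptor among these markers, had 32.7, 43.2 and 48.4 TPM in FGL00, against 48.2, 43.8 and 42.7 TPM in FGL01, and its groups overlapped. Fewer cells of a type and less RNA per cell cannot be told apart in whole liver, and the part of these cells in the lower Bmp6 was not tested.

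Other genes of iron handling gave calls in both directions. Of the 25 genes of the list, 2 were higher and 7 lower (median log2 fold change -0.10, against -0.11 over all genes). Without 1 mouse 1 to 6 were higher and 4 to 10 lower, and after scaling 2 were higher and 6 lower. Trf, the iron carrier transferrin, had 16142, 17348 and 16264 TPM in FGL00, against 12873, 13845 and 12995 TPM in FGL01 (log2 fold change 0.33 with SE 0.06, adjusted p = 0.0166), and its groups did not overlap. Tfrc, the receptor for transferrin, had 25.1, 18.9 and 19.9 TPM in FGL00, against 13.1, 9.09 and 9.68 TPM in FGL01 (adjusted p = 0.0466), but its adjusted p was 0.160 without FGL00-2788, 0.0694 without FGL00-2790, 0.0874 without FGL00-2791, 0.156 without FGL01-2723 and 0.125 without FGL01-2724. Slc40a1, which encodes ferroportin, had 43.0, 70.2 and 53.7 TPM in FGL00, against 76.0, 112 and 104.2 TPM in FGL01 (adjusted p = 0.0206), and its adjusted p was 0.0843 without FGL00-2788, 0.0521 without FGL00-2791, 0.0871 without FGL01-2723 and 0.0660 without FGL01-2724. The iron sensing genes Tfr2, Hjv and Tmprss6 did not pass (log2 fold changes 0.13, 0.09 and -0.06, adjusted p = 0.336, 0.624 and 0.723), nor did the ferritin heavy chain gene Fth1 (-0.23, 0.0788).

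Haemoglobin genes and some other erythroid markers were higher in FGL00. Of the 15 erythroid markers tested, 9 were higher and none lower by the test, with 8 or 9 higher without any 1 mouse and 9 after scaling. Tfrc, whose call depended on single mice as given above, is 1 of the 9. By limma 2 of the 15 were lower with an unadjusted p under 0.05, and 1 was lower by the adjusted p without FGL00-2791. The haemoglobin genes summed to 3168, 5453 and 5783 TPM in FGL00, against 895, 1007 and 1768 TPM in FGL01, a ratio of means of 3.92. Their groups did not overlap, and the exact permutation p was 0.1, the smallest that 3 against 3 mice allow. FGL40 livers had 1149 ± 132 TPM of them (SD, n = 3). Among the single genes, whose reads may be shared between copies, Hbb-bt had 199, 331 and 380.4 TPM in FGL00, against 44.8, 49.4 and 102 TPM in FGL01 (log2 fold change 2.25 with SE 0.30, adjusted p = 0.00175). The log2 fold changes of Hba-a1, Hba-a2 and Hbb-bs were 2.03, 1.98 and 1.94 (adjusted p = 0.00246, 0.00246 and 0.00416). Alas2, the first enzyme of haem synthesis in red cell precursors, had 19.3, 29.7 and 27.7 TPM in FGL00, against 7.14, 9.62 and 10.4 TPM in FGL01 (log2 fold change 1.39 with SE 0.18, adjusted p = 0.00159). Slc4a1, the band 3 anion exchanger of the red cell membrane, had 1.27, 1.54 and 1.60 TPM in FGL00, against 0.0479, 0.262 and 0.167 TPM in FGL01 (log2 fold change 1.09 with SE 0.12, adjusted p = 5.09e-04). Both stood apart between the groups. The regulators of early precursors did not pass. Klf1 had a log2 fold change of -0.20 (adjusted p = 0.664), Gata1 of -0.11 (0.217), with at most 0.183 TPM in any of the 6 mice, and the erythropoietin receptor gene Epor of -0.49 (0.0655). The part of blood left in the livers in these values was not tested.

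Among genes of the acute phase response Saa1, Saa2, Orm1 and Steap4 were higher in FGL00. Of 37 tested, 8 were higher and 2, Hamp and Hamp2, were lower (median log2 fold change 0.54). The number higher ranged from 4 to 20 without 1 mouse, with 20 without FGL01-2722. The summed TPM of the 38 listed genes in this mouse, 56612, was the nearest in FGL01 to those of FGL00 (59378 to 66670). For Saa1, Saa2 and Steap4, given below, FGL01-2723 was the nearest. Saa1, a serum amyloid A gene, had 1998, 2637 and 6834 TPM in FGL00, against 321, 849.6 and 67.2 TPM in FGL01 (log2 fold change 3.64 with SE 0.68, adjusted p = 0.0135). Saa2, its neighbour, had 855, 1277 and 3535 TPM in FGL00, against 107, 374 and 21.4 TPM in FGL01 (log2 fold change 4.02 with SE 0.76, adjusted p = 0.0149). FGL00-2791 was the highest and FGL01-2724 the lowest for both genes, and the groups did not overlap. Those of Saa3 did, with 17.3, 35.97 and 17.9 TPM in FGL00, against 6.99, 32.7 and 10.7 TPM in FGL01 (adjusted p = 0.387). The sum of Saa1 and Saa2 averaged 5712 ± 4068 TPM in FGL00, 580.2 ± 583 TPM in FGL01 and 85.1 ± 29.4 TPM in FGL40 (SD, n = 3 each). Orm1, the orosomucoid, had 1319.6, 1718 and 1904 TPM in FGL00, against 942, 913 and 548 TPM in FGL01 (log2 fold change 1.06 with SE 0.18, adjusted p = 0.00828). Steap4, a metalloreductase induced by interleukin 6, had 41.1, 45.4 and 51.4 TPM in FGL00, against 22.9, 27.8 and 17.5 TPM in FGL01 (log2 fold change 1.004 with SE 0.18, adjusted p = 0.00994). These 4 genes kept an adjusted p at or under 0.0474 without any 1 mouse. Saa4, Orm3, Fgl1 and Itih4 were also higher (log2 fold changes 0.84, 1.71, 0.83 and 0.54, adjusted p = 0.0405, 0.0353, 0.0455 and 0.0278), but each missed the threshold without each of 5 mice in turn. The adjusted p of Saa4 was 0.105 without FGL00-2788, 0.114 without FGL00-2790, 0.0607 without FGL01-2722, 0.0608 without FGL01-2723 and 0.0675 without FGL01-2724, and that of Orm3 0.0843 without FGL00-2788, 0.0838 without FGL00-2790, 0.0809 without FGL00-2791, 0.109 without FGL01-2723 and 0.114 without FGL01-2724. That of Fgl1 was 0.138 without FGL00-2788, 0.0930 without FGL00-2790, 0.0773 without FGL00-2791, 0.118 without FGL01-2723 and 0.147 without FGL01-2724, and that of Itih4 0.0928 without FGL00-2788, 0.0653 without FGL00-2790, 0.0543 without FGL00-2791, 0.0735 without FGL01-2723 and 0.0755 without FGL01-2724.

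Other acute phase genes overlapped between the groups or varied too much within them to pass. Lcn2, which encodes a protein that binds siderophores, had 488, 592 and 403 TPM in FGL00, against 387, 381 and 39.7 TPM in FGL01 (adjusted p = 0.252), with FGL01-2724 far below the other 5 mice. Serpina3n, Hp and the metallothioneins Mt1 and Mt2 had log2 fold changes of 1.09, 0.51, 1.34 and 1.26 (adjusted p = 0.0782, 0.0690, 0.107 and 0.186), and Serpina3n, Hp and Mt1 passed without FGL01-2722 (adjusted p = 0.00141, 0.0191 and 0.0468). The list of 25 genes of interleukin 6 and STAT3 signalling also holds genes of interleukin 1, tumour necrosis factor and NF-kappaB signalling. Of the 25, 1 was higher and 2 were lower. Il1r1, a receptor gene of interleukin 1, was higher (log2 fold change 0.85, adjusted p = 0.0132, 0.0605 without FGL01-2723). Il6st, the shared receptor chain of interleukin 6, and Nfkbia, the inhibitor of NF-kappaB, had log2 fold changes of -0.45 and -0.51 (adjusted p = 0.0309 and 0.0209), and neither passed after scaling (0.196 and 0.102). The adjusted p of Il6st was 0.113 without FGL00-2788, 0.0681 without FGL00-2790, 0.113 without FGL01-2723 and 0.0574 without FGL01-2724, and that of Nfkbia 0.0875 without FGL00-2788 and 0.0723 without FGL01-2724.

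The promoters of 4 of the higher acute phase genes show how the STAT element was spread among them. Of the 6 higher members with a promoter in the RefSeq table, Steap4 and Itih4 held TTCNNNGAA within 250 bases of the start, against 7.02% of all promoters. Saa1 and Saa2, whose windows were identical in 238 of 251 aligned columns (94.8%), held no such match. The 150 bases before the start lie at chr7:46742981-46743130 (minus strand), chr7:46751683-46751832 (plus strand), chr5:7960322-7960471 (plus strand) and chr14:30886326-30886475 (plus strand) of GRCm38.p6. Capitals mark the STAT element.
Saa1: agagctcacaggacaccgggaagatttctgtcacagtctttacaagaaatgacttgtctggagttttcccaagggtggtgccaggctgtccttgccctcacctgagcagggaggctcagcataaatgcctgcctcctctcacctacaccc
Saa2: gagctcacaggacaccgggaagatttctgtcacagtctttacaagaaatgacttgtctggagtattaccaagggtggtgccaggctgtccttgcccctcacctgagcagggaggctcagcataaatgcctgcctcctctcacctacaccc
Steap4: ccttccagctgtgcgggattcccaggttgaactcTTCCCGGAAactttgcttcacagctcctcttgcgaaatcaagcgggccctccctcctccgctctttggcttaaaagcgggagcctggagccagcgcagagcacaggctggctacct
Itih4: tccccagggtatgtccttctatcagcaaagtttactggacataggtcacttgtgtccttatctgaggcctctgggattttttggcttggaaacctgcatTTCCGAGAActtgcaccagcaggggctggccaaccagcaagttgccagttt
The element starts at -116 in Steap4 and at -51 in Itih4, further from and nearer to the start than the -97 of Hamp. Hamp and Hamp2, which were lower, hold it as well.

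Other plasma proteins made by hepatocytes were higher in part. In complement, 7 of 27 genes were higher and none lower by the test (3 to 10 higher without 1 mouse). C9, a subunit of the membrane attack complex, had 133, 130.0 and 129 TPM in FGL00, against 47.8, 73.6 and 50.4 TPM in FGL01 (log2 fold change 1.20 with SE 0.14, adjusted p = 9.42e-04). Serping1, the C1 inhibitor, had 880.3, 896 and 887 TPM in FGL00, against 721, 622 and 527 TPM in FGL01 (log2 fold change 0.52 with SE 0.09, adjusted p = 0.00652), and Cfi, a protease that cleaves C3b, had 744, 749.5 and 680.5 TPM in FGL00, against 565, 487 and 445 TPM in FGL01 (log2 fold change 0.54 with SE 0.08, adjusted p = 0.00350). These 3 genes did not overlap between the groups and kept an adjusted p at or under 0.0304 without any 1 mouse. C8a and C4b were higher by 1.47 and 0.63 on the log2 scale (adjusted p = 0.0148 and 0.0206). The adjusted p of C8a was 0.0614 without FGL01-2723 and 0.0556 without FGL01-2724, and that of C4b 0.0809 without FGL00-2788, 0.0748 without FGL01-2723 and 0.0590 without FGL01-2724.

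In coagulation, 8 of 25 genes were higher, and 2 to 17 without 1 mouse, with 17 without FGL01-2722 and 2 without FGL01-2724. The most abundant were Kng1, Plg, Hrg and F2, which encode kininogen, plasminogen, histidine-rich glycoprotein and prothrombin. Their log2 fold changes were 0.65, 0.37, 0.80 and 0.26 (adjusted p = 0.0447, 0.0486, 0.0285 and 0.0394), and none of these 4 passed without FGL01-2723 (adjusted p = 0.160, 0.184, 0.116 and 0.132). They did not pass without FGL01-2724, FGL00-2788 or FGL00-2790 either (adjusted p between 0.0577 and 0.155). Of the 19 carriers and negative acute phase proteins, 7 were higher, and 1 to 11 without 1 mouse. Among them Gc, the vitamin D binding protein, had 4602, 4698 and 4432 TPM in FGL00, against 3840.1, 3831 and 3911 TPM in FGL01 (adjusted p = 0.0206, 0.0772 without FGL00-2788, 0.0557 without FGL00-2790 and 0.0748 without FGL01-2723). Albumin (Alb) did not pass (log2 fold change 0.05, adjusted p = 0.822). Rnase4, a secreted ribonuclease, had 2705, 2391 and 2629 TPM in FGL00, against 1384, 986 and 1269.7 TPM in FGL01 (log2 fold change 1.10 with SE 0.15, adjusted p = 0.00246), and no FGL01 mouse reached the level of any FGL00 mouse.

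The major urinary proteins, pheromone carriers that the liver secretes, were low in both groups. The 22 genes summed to 453, 538 and 830.1 TPM in FGL00, against 20.5, 121 and 326 TPM in FGL01, whereas FGL40 livers had 32657 ± 6738 TPM and FWT00 livers 26749.6 ± 7659 TPM (SD, n = 3 each). FGL00 lay above FGL01 in every mouse (exact permutation p = 0.1, the smallest possible). Of 15 tested, 5 were higher and none lower by the test, with 3 to 5 higher without 1 mouse. Mup22 had 316, 370.1 and 620.0 TPM in FGL00, against 4.26, 14.6 and 83.7 TPM in FGL01 (log2 fold change 4.45 with SE 0.68, adjusted p = 0.00416), and it made up most of the FGL00 sum. Mup18 had 21.8, 27.2 and 50.4 TPM in FGL00, against 0, 1.73 and 7.54 TPM in FGL01 (adjusted p = 0.00771), and Mup10 had 3.89, 6.64 and 12.7 TPM in FGL00, against 0.162, 0.330 and 1.56 TPM in FGL01 (0.00886). Mup11 and Mup16 were higher with adjusted p values of 0.0116 and 0.0287. The adjusted p of Mup11 was 0.0554 without FGL01-2723, and that of Mup16 0.0866 without FGL00-2788, 0.0892 without FGL00-2791 and 0.113 without FGL01-2723. Mup20 and Mup3 overlapped between the groups (log2 fold changes 0.31 and 0.38, adjusted p = 0.722 and 0.774). These paralogs are near-identical and their reads may be shared, so that the sum is firmer than any single member.

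Serpina1e, 1 of the mouse alpha-1-antitrypsin genes, had the largest rise of the named genes, with 382, 367 and 676 TPM in FGL00, against 58.3, 9.84 and 8.80 TPM in FGL01 (log2 fold change 4.63 with SE 1.005, adjusted p = 0.0238). Its call was lost without 4 of the mice, with an adjusted p of 0.0722 without FGL00-2788, 0.0676 without FGL00-2791, 0.0908 without FGL01-2723 and 0.0807 without FGL01-2724. The 5 paralogs Serpina1a to Serpina1e, among which reads may be shared, summed to 21541, 21906 and 22675 TPM in FGL00, against 20049, 16548 and 17577 TPM in FGL01, so that the family as a whole differed by a ratio of 1.22.

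**Figure D3:**
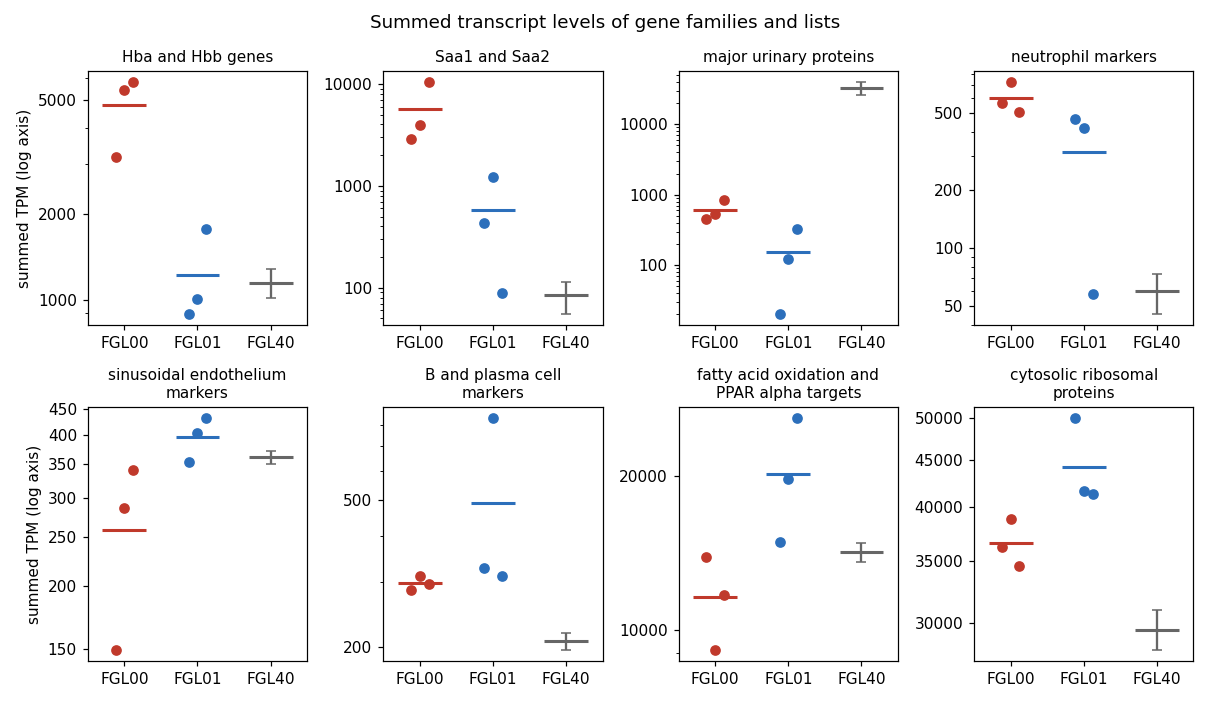
Summed TPM (log axes) of 8 gene families and lists in single livers of FGL00 (red) and FGL01 (blue), with the group mean as a line, and the mean with its SD in FGL40 (grey, n = 3). The haemoglobin, Saa and Mup sums of the 3 FGL00 livers lie above those of the 3 FGL01 livers; the endothelial, fatty acid oxidation and ribosomal sums lie below them.

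Granule genes of young neutrophils were higher in FGL00, at low levels. Of 17 neutrophil markers, 6 were higher and none lower by the test, with 4 to 10 higher without 1 mouse. Ngp, a granule protein gene, had 3.31, 4.07 and 4.51 TPM in FGL00, against 0.950, 0.741 and 0.435 TPM in FGL01 (log2 fold change 1.54 with SE 0.13, adjusted p = 2.94e-05). Prtn3, proteinase 3, had 18.9, 24.8 and 9.53 TPM in FGL00, against 5.81, 1.82 and 0.766 TPM in FGL01 (log2 fold change 2.44 with SE 0.39, adjusted p = 0.00568). Ltf and Mpo, which encode lactoferrin and myeloperoxidase, stayed at or under 2.32 TPM in all 6 mice (adjusted p = 0.00287 and 0.00679). For these 4 genes the groups did not overlap and the call held without any 1 mouse. Camp passed (adjusted p = 0.0161, 0.0740 without FGL01-2723 and 0.0558 without FGL01-2724). Markers of mature neutrophils, S100a8 and S100a9, had log2 fold changes of 1.45 and 1.26 and did not pass (adjusted p = 0.0723 and 0.0611), though they did without FGL01-2722 (0.00489 and 0.0117). The sum of all 17 was 562, 722 and 508 TPM in FGL00, against 464, 419 and 57.8 TPM in FGL01, a sum that Lcn2, also a hepatocyte gene, dominates, and FGL01-2724 stood apart.

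Of 14 markers of B and plasma cells, 2 were lower in FGL00, with 1 after scaling and 1 to 4 without 1 mouse. With an unadjusted p under 0.05 by limma, 10 of the 14 were lower and none higher. Their median log2 fold change was -0.90, and -0.79 after scaling. Their sum overlapped between the groups, with means of 298 TPM in FGL00 and 491 TPM in FGL01. The 8 markers other than immunoglobulin and J chain genes made up 244 and 258 TPM of these means. Ighd, the immunoglobulin heavy chain of naive B cells, had 0.921, 2.57 and 2.49 TPM in FGL00, against 5.58, 10.98 and 5.74 TPM in FGL01 (log2 fold change -1.49 with SE 0.26, adjusted p = 0.00943), and Cd79a, a chain of the B cell receptor, had 1.43, 3.27 and 2.31 TPM in FGL00, against 5.55, 9.86 and 4.52 TPM in FGL01 (adjusted p = 0.0233, 0.0982 without FGL00-2788, 0.0544 without FGL00-2791 and 0.0943 without FGL01-2723). Igkc, an antibody light chain gene, had 28.3, 32.1 and 29.6 TPM in FGL00, against 51.3, 340.1 and 34.2 TPM in FGL01 (adjusted p = 0.229), and FGL01-2723 was several times higher than the rest. By limma none of the 16 markers of Kupffer cells and macrophages and none of the 12 of cholangiocytes passed (3 and 0 had an unadjusted p under 0.05, all lower), and the 16 of T and NK cells and the 14 of stellate cells had 1 and 2 lower (0 for each after scaling).

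Genes of fatty acid oxidation and targets of PPAR alpha, the receptor that drives them on fasting, summed to 13874, 9146 and 11698 TPM in FGL00, against 14849, 19723 and 25879 TPM in FGL01, and the highest FGL00 mouse lay below the lowest FGL01 mouse. By the test 2 of 38 were lower (0 to 11 without 1 mouse, with 11 without FGL01-2722). Cyp4a14, a fatty acid hydroxylase, had 2094, 1117 and 1546 TPM in FGL00, against 3556, 4477 and 4685 TPM in FGL01 (log2 fold change -1.45 with SE 0.34, adjusted p = 0.0320), and Acot1, which cleaves acyl-CoA, had 76.8, 30.9 and 43.9 TPM in FGL00, against 101, 220.3 and 393 TPM in FGL01 (log2 fold change -2.11 with SE 0.55, adjusted p = 0.0447). Neither passed after scaling (adjusted p = 0.0758 and 0.0894). The adjusted p of Cyp4a14 was 0.0538 without FGL00-2788, 0.0880 without FGL00-2790, 0.0729 without FGL00-2791, 0.103 without FGL01-2723 and 0.0928 without FGL01-2724, and that of Acot1 0.0722 without FGL00-2788, 0.114 without FGL00-2790, 0.0988 without FGL00-2791, 0.126 without FGL01-2723 and 0.156 without FGL01-2724. The fatty acid binding protein gene Fabp1, the bifunctional enzyme gene Ehhadh and the transporter gene Cd36 had log2 fold changes of -1.20, -1.33 and -0.69 and did not pass (adjusted p = 0.0910, 0.138 and 0.181). Without FGL01-2722, the lowest FGL01 mouse for Fabp1 and Ehhadh, both passed (0.00848 and 0.0404). Cpt1a, the gate of mitochondrial oxidation, had a log2 fold change of 0.09 (adjusted p = 0.875).

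Among enzymes and transporters, several changes held without any 1 mouse. Slc13a3, a carrier of dicarboxylates, had 32.4, 29.6 and 28.6 TPM in FGL00, against 8.24, 8.55 and 6.35 TPM in FGL01 (log2 fold change 1.85 with SE 0.20, adjusted p = 4.38e-04). It was 1 of the 2 genes called with only the 6 mice. Gsta4, a glutathione transferase that detoxifies products of lipid peroxidation, had 23.0, 26.7 and 26.4 TPM in FGL00, against 50.7, 73.1 and 74.2 TPM in FGL01 (log2 fold change -1.33 with SE 0.12, adjusted p = 9.11e-05). Cyp2a22, a P450 enzyme, had 8.49, 8.001 and 4.17 TPM in FGL00, against 34.7, 55.5 and 88.8 TPM in FGL01 (log2 fold change -2.89 with SE 0.41, adjusted p = 0.00278), and Cyp4b1 had 4.26, 7.77 and 7.65 TPM in FGL00, against 15.7, 16.5 and 17.0 TPM in FGL01 (log2 fold change -1.24 with SE 0.15, adjusted p = 0.00102). Sult2a8, a sulfotransferase of bile acids, had 64.5, 48.0 and 78.7 TPM in FGL00, against 7.97, 12.7 and 32.5 TPM in FGL01 (log2 fold change 1.98 with SE 0.34, adjusted p = 0.00862). Atp6v0d2, a subunit of the proton pump of lysosomes, had 24.2, 23.7 and 24.1 TPM in FGL00, against 10.8, 2.94 and 1.99 TPM in FGL01 (log2 fold change 2.27 with SE 0.36, adjusted p = 0.00557), with all 3 FGL00 mice within 23.7 to 24.2 TPM. Col5a2, a fibrillar collagen chain, had 0.712, 0.801 and 1.12 TPM in FGL00, against 4.42, 4.01 and 3.72 TPM in FGL01 (log2 fold change -1.43 with SE 0.18, adjusted p = 0.00143), and Cxcl14, a chemokine, had 5.28, 4.66 and 5.28 TPM in FGL00, against 2.95, 0.879 and 1.13 TPM in FGL01 (log2 fold change 1.27 with SE 0.22, adjusted p = 0.00901). For these 8 genes the groups did not overlap, which the rule for naming the largest rises and falls required of those it took. Each of the 8 passed after scaling too, with adjusted p values of at most 0.00753.

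Other large changes depended on single mice. The sulfotransferases Sult3a1 and Sult3a2, which may share reads, summed to 109, 101 and 123 TPM in FGL00, against 44.3, 21.3 and 22.8 TPM in FGL01, and the adjusted p of Sult3a1 (0.0259) was 0.0834 without FGL00-2788, 0.0678 without FGL00-2791, 0.0988 without FGL01-2723 and 0.0807 without FGL01-2724. That of Sult3a2 (0.0188) was 0.0543 without FGL00-2791 and 0.0661 without FGL01-2724. Retsat, the retinol saturase, had 224, 161 and 183 TPM in FGL00, against 444, 636 and 901 TPM in FGL01 (adjusted p = 0.0240), and its adjusted p was 0.0607 without FGL00-2788, 0.0595 without FGL00-2790, 0.0600 without FGL00-2791, 0.0792 without FGL01-2723 and 0.0835 without FGL01-2724. Hao2, an oxidase of hydroxy acids, was lower by the test (log2 fold change -2.12, adjusted p = 0.0271, 0.0511 without FGL00-2788, 0.0533 without FGL00-2790, 0.0858 without FGL00-2791, 0.102 without FGL01-2723 and 0.0947 without FGL01-2724), and so was Cxcl13, a chemokine that attracts B cells (-2.08, 0.0310, 0.116 without FGL00-2788, 0.0652 without FGL00-2790, 0.0864 without FGL01-2723 and 0.0735 without FGL01-2724). The remaining 3 of the 15 largest falls, Sult2a5, Unc93a2 and Zfp865, had log2 fold changes of -1.49, -1.44 and -1.41 (adjusted p = 0.0370, 0.0183 and 0.0277). None of these 3 passed without FGL01-2723 or FGL00-2788 (adjusted p between 0.0677 and 0.139).

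Lists of liver metabolism had calls in both directions, and most of them rested on single mice. The list of Cyp2 and Cyp3 P450 genes also holds Cyp1 genes and Por, Nr1i2, Nr1i3 and Ahr, which are not P450 genes. Of its 50 genes tested 3 were higher and 1 lower (0 to 3 and 1 to 5 without 1 mouse). Of 28 genes on the list of glucuronosyltransferases and sulfotransferases, which also holds Ugdh and Ugp2, 3 were higher (1 to 3). Of 43 glutathione and antioxidant genes 2 were lower (1 to 10). Cyp2e1, a pericentral P450 that oxidises ethanol, had 8709.8, 7343 and 8267 TPM in FGL00, against 6107, 4767 and 5813 TPM in FGL01 (log2 fold change 0.55 with SE 0.11, adjusted p = 0.0207), and its adjusted p was 0.0850 without FGL00-2788, 0.0544 without FGL00-2791 and 0.0871 without FGL01-2723. Of 26 drug and anion transporters 3 were higher (1 to 3), among them Slc22a7, an organic anion carrier, with 4.66, 5.62 and 5.10 TPM in FGL00, against 1.07, 0.981 and 1.56 TPM in FGL01 (adjusted p = 0.0187, 0.0543 without FGL00-2788 and 0.0748 without FGL01-2723). Of 23 hepatokines 5 were higher and 1 lower (1 to 5 each without 1 mouse). Lect2, a hepatokine that attracts leukocytes, had 170.4, 151 and 180.3 TPM in FGL00, against 53.2, 88.3 and 107 TPM in FGL01 (adjusted p = 0.0188, 0.0677 without FGL00-2788 and 0.0543 without FGL00-2791), and Apoa4, an apolipoprotein, had 232, 192 and 424 TPM in FGL00, against 164, 116 and 83.3 TPM in FGL01 (adjusted p = 0.0310, 0.0736 without FGL00-2788, 0.0924 without FGL00-2791, 0.0957 without FGL01-2723 and 0.111 without FGL01-2724). Igf1, the growth factor that growth hormone induces, had 496, 514 and 600.3 TPM in FGL00, against 408, 375 and 361 TPM in FGL01 (adjusted p = 0.0164, 0.0521 without FGL00-2791, 0.0614 without FGL01-2723 and 0.0547 without FGL01-2724). Egfr, the receptor of epidermal growth factor, had 85.0, 79.9 and 105 TPM in FGL00, against 69.4, 24.7 and 21.6 TPM in FGL01 (adjusted p = 0.0363, 0.0982 without FGL00-2788, 0.0594 without FGL00-2790, 0.0965 without FGL00-2791, 0.136 without FGL01-2723 and 0.127 without FGL01-2724), with FGL01-2722 near FGL00. Of 33 genes of bile acid synthesis and transport 2 were higher and 1 lower, and of 33 genes of glycolysis and the hypoxia response 1 was higher and 2 lower. None of these 6 genes passed without FGL01-2723, and the adjusted p of the most abundant, Slc27a5, which joins bile acids to CoA, was 0.0772 without FGL00-2788, 0.0518 without FGL00-2791, 0.0908 without FGL01-2723 and 0.0525 without FGL01-2724.

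Interferon genes and clock genes each gave a few calls. Of 34 genes of the type I interferon response 1 was lower, Usp18, a protease that removes ISG15 and restrains interferon signalling, with 3.90, 3.57 and 3.95 TPM in FGL00, against 7.08, 9.33 and 9.20 TPM in FGL01 (log2 fold change -0.98 with SE 0.14, adjusted p = 0.00308). The count was 14 without FGL01-2722. Ifit3 and Irf7 did not pass (log2 fold changes -0.41 and -0.63, adjusted p = 0.276 and 0.0722). Of 21 clock genes 3 were higher. The repressor gene Bhlhe40 had 53.4, 82.6 and 92.0 TPM in FGL00, against 33.8, 35.8 and 30.0 TPM in FGL01 (adjusted p = 0.0168, 0.0547 without FGL00-2791 and 0.0574 without FGL01-2724), and Ciart had 17.2, 39.5 and 8.77 TPM in FGL00, against 10.7, 3.31 and 1.01 TPM in FGL01 (adjusted p = 0.0385, 0.106 without FGL00-2788, 0.107 without FGL00-2790, 0.114 without FGL01-2723 and 0.128 without FGL01-2724). Usp2 also passed (0.0488, 0.0945 without FGL00-2788, 0.126 without FGL00-2790, 0.0895 without FGL00-2791, 0.138 without FGL01-2723 and 0.126 without FGL01-2724). Dbp, an output gene that follows the hour of the day closely, had 20.1, 40.7 and 11.4 TPM in FGL00, against 14.7, 4.74 and 2.501 TPM in FGL01 (adjusted p = 0.102).

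Ribosomal and respiratory genes showed small shifts that rested on the scale. Of 79 cytosolic ribosomal protein genes 24 were lower with TPM as deposited and none after median-ratio scaling, and their median log2 fold changes were -0.28 and -0.10. The same counts were 16 of 36 and 1 for complex I of the respiratory chain, 5 of 9 and 0 for complex III, and 15 of 29 and 0 for complexes II, IV and V. Uqcr10, a small subunit of complex III, had 310.4, 303 and 317 TPM in FGL00, against 439, 409 and 447 TPM in FGL01 (log2 fold change -0.48 with SE 0.06, adjusted p = 0.00102), which held without any 1 mouse, and its adjusted p after scaling was 0.0612. Rps15 and Rpl26 passed without any 1 mouse as well (log2 fold changes -0.39 and -0.39) and had adjusted p values of 0.243 and 0.190 after scaling. The sum of the ribosomal genes was 36269, 38852 and 34585 TPM in FGL00, against 49894, 41621 and 41306 TPM in FGL01. None of the 13 genes of the mitochondrial genome passed (2 were higher with an unadjusted p under 0.05).

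Many lists had no member past the test. By limma none of the 41 ascorbate-dependent dioxygenases passed, among them the prolyl hydroxylases and the TET and JmjC enzymes (median log2 fold change -0.08). The same held for the 20 genes of ascorbate synthesis, recycling and transport, 12 of carnitine synthesis and uptake, 25 of cholesterol synthesis, 31 of fatty acid and triglyceride synthesis, 30 of fasting and gluconeogenesis, 24 of the unfolded protein response, 36 of the cell cycle, 20 of the glucocorticoid response and 17 of the urea cycle. With an unadjusted p under 0.05, 4 of the dioxygenases were lower, and of the other lists in this order 6, 0, 0, 3, 1, 2, 7, 3 and 3 genes had such a p. Without 1 mouse, at most 3 members of any of these lists passed in 1 direction. After scaling 1 member of these lists passed, Gulo, which was then higher (adjusted p = 0.0298). The genes of ascorbate synthesis, recycling and transport summed to 4102, 4109 and 4009.7 TPM in FGL00, against 3623, 3539 and 3568 TPM in FGL01, without overlap. Slc23a1 and Slc23a2, the ascorbate transporters, had log2 fold changes of 0.68 and -0.21 (adjusted p = 0.112 and 0.660). Of 37 collagen and matrix genes 1 was higher, fibronectin (Fn1, log2 fold change 0.46, adjusted p = 0.0462, 0.162 without FGL00-2788, 0.0837 without FGL00-2790, 0.0691 without FGL00-2791, 0.181 without FGL01-2723 and 0.1197 without FGL01-2724), and 1 was lower, Col5a2, while Col1a1 did not pass (-0.43, 0.513). Of 50 single genes followed whatever their result, Hamp and Saa1 among them, 6 were higher and 4 lower. Of the others Scd1, Fasn, Cyp7a1, Pck1, Fgf21 and Gdf15 overlapped between the groups, with adjusted p values of 0.916, 0.998, 0.970, 0.7505, 0.692 and 0.752. In a spread of this size a miss does not show that levels were alike.

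**Figure D4:**
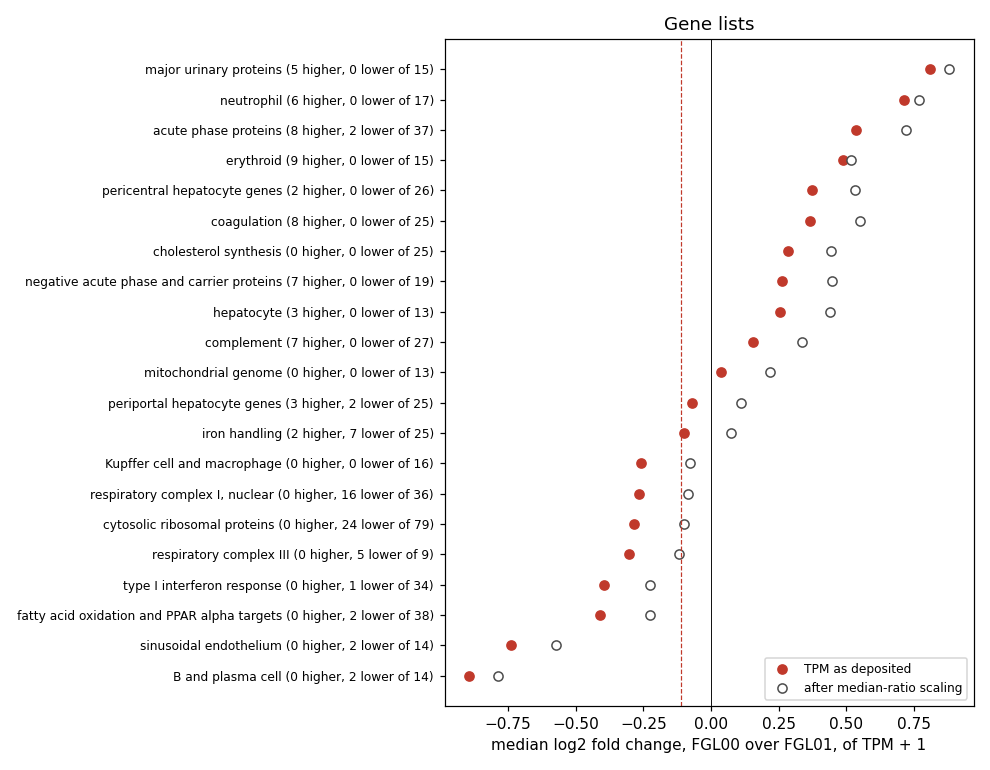
Median log2 fold change of TPM + 1 (FGL00 over FGL01) of the tested members of 21 gene lists, with TPM as deposited (filled) and after median-ratio scaling (open). The labels give the members higher and lower by the adjusted p; the dashed line is the median of all genes, -0.11. The Mup, neutrophil, acute phase and erythroid lists have the highest medians and the B cell and endothelial lists the lowest.

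The same 2 treatments were given to males (MGL00 and MGL01, 3 mice each), and the hepcidin genes parted there. Hamp had 4140.5, 3100.3 and 1482 TPM in MGL00, against 1218, 1386 and 1516 TPM in MGL01 (log2 fold change 0.96, adjusted p = 0.0663), and the female change differed from the male by -4.29 on the log2 scale, adjusted p = 5.92e-06. Hamp2 was lower in both sexes, with 127, 66.7 and 35.9 TPM in MGL00, against 364, 521 and 343 TPM in MGL01 (log2 fold change -2.56, adjusted p = 0.00108), and its difference between the sexes did not pass (-0.25 on the log2 scale, adjusted p = 0.862). The change of Id1 and that of Atoh8 differed as well, by -2.11 on the log2 scale, adjusted p = 0.00630, and by -1.38 on the log2 scale, adjusted p = 0.00151. The haemoglobin genes and Alas2 did not pass in males. The log2 fold changes of Hbb-bt, Hba-a2 and Alas2 were -0.08, -0.34 and -0.63 there (adjusted p = 0.934, 0.601 and 0.130), and the differences between the sexes were 2.32, 2.32 and 2.02 (adjusted p = 0.00278, 0.00225 and 0.00135). Over 17820 genes, 1634 (9.17%) had a difference between the sexes with an adjusted p under 0.05, and 295 of them also passed after scaling. Of the 177 genes followed singly and tested in both sexes, 59 passed with TPM as deposited. Saa1, Orm1, Cyp4a14 and Acot1 were among those that did not (adjusted p = 0.338, 0.306, 0.999 and 0.916).

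**Figure D5:**
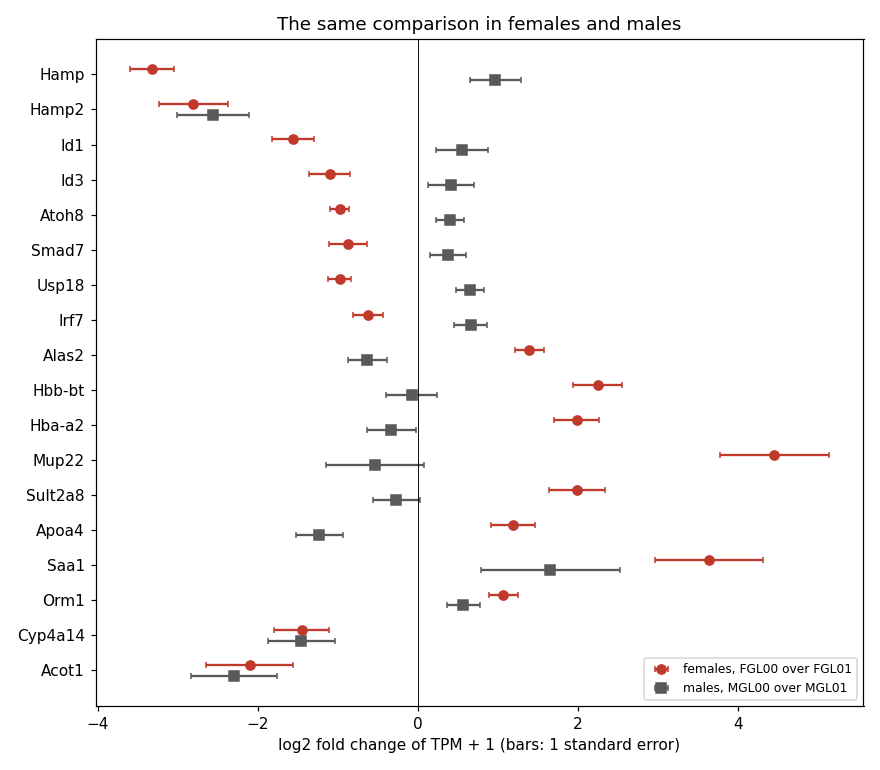
Log2 fold change of TPM + 1 of 18 genes in females (FGL00 over FGL01, red circles) and in males (MGL00 over MGL01, grey squares), with 1 standard error from limma on each side. Hamp is at -3.32 in females and 0.96 in males; Hamp2 is at -2.81 and -2.56.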

How the data were processed

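Whole-liver poly(A) RNA of 36 mice was sequenced by the authors in paired-end mode. Reads were trimmed by fastp 0.20.0, and kallisto 0.46.2 assigned them to the mouse transcriptome of Ensembl. The values the authors deposited are TPM of 36066 genes, with a sum of 1000000 per mouse; how transcripts were summed into genes is not given in the sources used here, and the depth is not part of the values, so count tests were not used and the precision of low values is unknown. Of 9657 identifiers without a symbol in the table, 9473 were named from a reference table of identifiers.

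Mice were grouped by the names in their labels. Nothing in the labels pairs the mice. The p-values of limma set a difference against the spread between mice of the same group, pooled over all groups in the fit. The 18828 genes detected (TPM over 0) in 4 or more of the 6 FGL00 and FGL01 mice entered a linear model of log2(TPM + 1) in limma 3.58.1 (R 4.3.3), with a mean for each group and robust, trended empirical Bayes moderation. It was fitted to all 18 females, which share 1 estimate of the spread. Called genes had mean TPM that differed more than 2-fold and a p adjusted by Benjamini-Hochberg of under 0.05, and list members were counted on that p without the fold. The difference between the sexes was fitted as an interaction in 36 mice over 17820 genes above 0 in at least 4 of the 6 mice of each sex in these groups. The title of 1 of the other mice, MGLR40-2831, says female while its name and sex label say male. It entered this fit as MGLR40 and contributes to the spread only, and without it 1588 genes in place of 1634 passed, among them all 41 listed in the closing section (chosen after seeing the data). Summed TPM were compared with an exact two-sided permutation test, which cannot go below 0.1 with 3 against 3 mice. The fit was checked on simulated data.

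The comparison, the lists and the rule for named genes were chosen with earlier results of these data known. The rule took, among called genes whose mean reached 5 TPM in 1 group and whose groups did not overlap, the 15 that rose most and the 15 that fell most, leaving out pseudogenes and predicted genes; of each pathway list, the 4 members past the test with the highest TPM; 50 single genes whatever their result; and the 5 largest differences between the sexes each way. The genes of the BMP, erythroid, neutrophil, B cell and endothelial lists named beyond it, with Saa3, Saa4, Orm3, Steap4, C9, Fabp1, Ehhadh, Ifit3 and Irf7, were chosen after their values were seen. Alternatives were median-ratio scaling, rescaling without Mup genes, log2(TPM + 0.1), other filters on low values, other fits and ratios, and leaving out each mouse; their use for counts of list members was chosen after seeing the data. Promoters are those of RefSeq (GRCm38.p6), a reference other than the transcriptome of the files, and only bases before the start were used. Figures were drawn with matplotlib 3.10.9 (Python 3.11.15). The authors' protein and polysome data were not analysed here, and results of some genes are not reported here.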

Additional observations from a re-analysis of the deposited data

Results flagged for a closer look

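Of 177 genes followed singly that could be tested in both sexes, 59 had a difference between the change in females (FGL00 against FGL01) and that in males (MGL00 against MGL01) with an adjusted p under 0.05 by limma's interaction term, and 41 had it both with TPM as deposited and after median-ratio scaling. Over all 17820 genes tested, 1634 (9.17%) had such a difference with TPM as deposited, and 295 had it with both scalings. Some of the 177 genes were named for this difference, for their large change in females or after their values were seen. The counts of 59 and 41 therefore cannot be set against that share. Each value below is the log2 fold change in females minus that in males. Of the Mup genes the difference was 4.99 for Mup22, 4.41 for Mup18, 3.29 for Mup16 and 3.12 for Mup10. Of the erythroid genes it was 2.32 for Hbb-bt, 2.32 for Hba-a2, 2.00 for Hba-a1, 2.10 for Hbb-bs, 2.02 for Alas2 and 1.24 for Slc4a1. Hamp and genes of the BMP pathway, an endothelial marker and a collagen had negative differences, with -4.29 for Hamp, -2.11 for Id1, -1.38 for Atoh8, -1.56 for Id2, -1.39 for Ehd3 and -1.16 for Col5a2. Interferon genes, the interleukin 6 receptor chain and the p53 gene differed the same way, with -1.63 for Usp18, -1.76 for Irgm2, -1.29 for Irf7, -0.90 for Il6st and -1.04 for Trp53. Secreted and neutrophil genes differed by 1.31 for Ngp, 0.75 for Camp, 0.57 for Mpo, 1.15 for Cxcl14, 1.19 for C9 and 0.91 for Lect2. Of the remaining genes, of metabolism and other functions, some had positive differences, with 2.26 for Sult2a8, 2.22 for Sult3a1, 1.89 for Cyp2a5, 2.35 for Cyp3a41a, 3.57 for Ugt1a5, 2.42 for Apoa4, 5.62 for Scd1, 2.66 for Elovl3, 0.85 for Pdk1, 0.40 for Slc27a5 and 1.26 for the clock gene Usp2, and others negative ones, with -1.52 for Cyp4b1, -1.94 for Cux2 and -2.49 for Sdf2l1. Among these, the change of Scd1 was 0.17 in females, where it did not pass, and -5.46 in males, and that of Apoa4 was 1.19 in females and -1.23 in males. Without each of the 12 mice in turn 35 of the 41 still passed. The others, with the largest adjusted p without 1 mouse, were Pdk1 (0.124), Slc27a5 (0.0667), Cyp2a5 (0.0632), Usp2 (0.0925), Lect2 (0.0909) and Cyp3a41a (0.0858). Slc27a5 missed the threshold only without FGL01-2723. MGL01-2713 had the lowest values of the MGL01 mice for Mup22 and Scd1, 3439.7 and 656 TPM, and without this mouse the differences of these genes were 5.73 and 6.37 (adjusted p = 1.60e-04 and 0.00165). Mup22 in the males had 6232, 9558 and 4892 TPM in MGL00, against 16318, 15814 and 3439.7 TPM in MGL01, and Scd1 133, 70.6 and 6.91 TPM in MGL00, against 3169, 3088 and 656 TPM in MGL01. Reads of the Mup paralogs and of the globin genes may be shared between copies.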

How the results depend on the processing

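No paired analysis was possible because the animal numbers in the labels are unique to each mouse, so the groups share none. Of the 204 called genes (75 higher and 129 lower in FGL00), the total was 111 after median-ratio scaling (30 lower), 2 with only the 6 mice in the fit (1 higher and 1 lower), 360 with all 36 mice (250 lower) and 516 with array weights (406 lower). Without a criterion on the ratio it was 772 (132 higher and 640 lower), and with a ratio above 1.5 it was 433 (332 lower). Without 1 mouse the total ranged from 78 to 530, with 40 to 145 higher and 36 to 385 lower. Rescaling without Mup genes, log2(TPM + 0.1) and the 3 other filters on low values gave 156 to 199 genes. The count of genes with a difference between the sexes, 1634, was 537 after scaling and 892 to 2265 without 1 mouse. The summed share of the mitochondrial genome, 0.432 percentage points higher in FGL00 than in FGL01, was 2.25 points higher after scaling, and that of the hepatocyte markers, 1.42 points higher, was 2.83 points higher. By its construction the scaling divides each mouse by its median ratio, so shares no longer sum to the same total. Of the 181 genes followed singly, none changed direction past the test. Their side of the threshold was kept by 136 after scaling, 64 with only the 6 mice, 164 with all 36 mice and 174 with log2(TPM + 0.1). Over all the fits without 1 mouse it was kept 756 times, 310 calls were lost and 20 gained. The cause of these shifts was not tested. Low values, such as 48 called genes with a mean under 1 TPM in the higher group, are the least certain, since depth is not part of the TPM.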
